A study of Mus musculus with 43 samples.

Results

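The 8 genes described here encode 5 subunits of interferon and interleukin-10 family receptors (Ifnar1, Ifnar2, Ifngr1, Ifngr2 and Il10rb), the Janus kinases Jak1 and Tyk2, and the transcription factor Stat2. They were chosen by gene symbol, and all 8 were found among the 24537 genes of each of 3 expression tables of mouse astrocytes. Ifnar2, Il10rb, Ifnar1 and Ifngr2 lie side by side on mouse chromosome 16, in the region that corresponds to the human chromosome triplicated in Down syndrome, and the other 4 lie on other chromosomes. The comparison of DS with wild type therefore asks whether the 4 clustered receptor genes differ from the partners they signal with, and by how much beside the ratio of 1.5 that 3 gene copies against 2 would give.

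The series holds 43 RNA sequencing libraries in 9 groups. In the disorder table, astrocytes were immunopanned (captured on antibody-coated dishes) from cortex at postnatal day 7 and kept for 12 days in serum-free medium, from models of Fragile X syndrome (FXS, 6 libraries), Rett's syndrome (RTT, 6 libraries) and Down's syndrome (DS, 4 libraries) and from wild-type mice (WT, 6 libraries). In the BMP6 table, wild-type astrocytes prepared in the same way received the growth factor BMP6 for the last 5 days (6 libraries) or no factor (Alone, 6 libraries), and each culture gave a library of each kind. In the preparation table, astrocytes labelled MD cultured (3 libraries), IP cultured (immunopanned, then cultured, 3 libraries) and IP acute (immunopanned and not cultured, 3 libraries) were compared; the labels do not spell out MD, nor the age, strain or medium of these 3 groups. The labels name the disorder and not the mouse strain, the allele or the sex. The extent of the triplicated segment is therefore an assumption, taken here as chromosome 16 from Mrpl39 to the end, as in the Ts65Dn mouse. Whether segments of other chromosomes are triplicated too is not given by the labels.

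Interferons are secreted antiviral cytokines. Type I interferons bind IFNAR1 and IFNAR2, which carry TYK2 and JAK1, and these kinases phosphorylate STAT2, which acts with IRF9 to switch on interferon-stimulated genes. Interferon gamma binds IFNGR1 and IFNGR2, which carry JAK1 and JAK2, and IL10RB is the shared subunit of the receptors for interleukin-10, interleukin-22 and interferon lambda. Astrocytes carry these receptors and respond to interferons during infection and inflammation of the brain.

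On the mouse build GRCm38.p6, the chromosome 16 genes all run on the plus strand in the order Ifnar2 (chr16:91372783-91405589), Il10rb (chr16:91406157-91425834), Ifnar1 (chr16:91485032-91510523) and Ifngr2 (chr16:91547059-91564007). Ifngr1 (chr10:19591949-19610229) and Stat2 (chr10:128270498-128292853) are on the plus strand of chromosome 10. Jak1 (chr4:101151974-101265282) and Tyk2 (chr9:21104068-21131393) are on the minus strand. Whole gene spans are given, introns included.

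Promoter windows of 250 bases upstream of a RefSeq start were read for 7 of the 8 genes. For Ifnar2, Ifngr2, Ifngr1 and Stat2 this start is that of the gene span given above. For Ifnar1, Jak1 and Tyk2 it lies inside that span, so their windows reach into the gene. The windows were searched on both strands for the core of the interferon-stimulated response element, which the complex of STAT2 and IRF9 binds (TTTC, any 2 bases, TTTC). They were also searched for the gamma-activated site, which STAT dimers bind (TTCNNNGAA). The first motif was found in the window of Stat2 (chr10:128270248-128270497, plus strand), 222 to 213 bases before the start. The second was found in the window of Ifnar2 (chr16:91372533-91372782, plus strand), 214 to 206 bases before the start. These 2 windows are shown because they are the ones that hold a motif, with the motif in capitals and the sequence from RefSeq on GRCm38.p6.
Stat2: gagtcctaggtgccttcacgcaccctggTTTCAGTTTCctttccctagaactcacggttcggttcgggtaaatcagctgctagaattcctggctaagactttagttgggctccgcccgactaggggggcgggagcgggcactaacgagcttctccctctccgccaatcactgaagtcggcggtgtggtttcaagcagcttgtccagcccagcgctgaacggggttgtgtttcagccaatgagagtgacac
Ifnar2: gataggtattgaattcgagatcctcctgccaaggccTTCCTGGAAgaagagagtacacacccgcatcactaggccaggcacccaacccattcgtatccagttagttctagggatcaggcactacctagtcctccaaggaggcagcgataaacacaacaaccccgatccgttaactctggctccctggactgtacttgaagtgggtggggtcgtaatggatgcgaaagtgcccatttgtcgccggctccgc
Among 32851 mouse windows of the same length, 2.98% held the first motif and 7.02% held the second, so either match is a description of these letters and no more. Neither motif was found in the windows of Ifnar1, Ifngr2, Ifngr1, Jak1 and Tyk2.

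Depth was estimated at 10.6 to 55.2 M reads per library (median 27.6 M), and in the disorder table FXS libraries had 16.5 to 55.2 M, RTT libraries 31.2 to 46.6 M, DS libraries 25.7 to 37.3 M and WT libraries 10.6 to 36.3 M. Each member rested on an estimated 118 to 11059 reads in each library, the lowest being Tyk2 in WT 33. The astrocyte markers were high in all libraries of the disorder table, with summed FPKM of 12 genes between 2083 and 3481. Fmr1, the gene silenced in Fragile X syndrome, was at 0.967 to 2.21 FPKM in FXS and 12.0 to 17.1 FPKM in WT. Library DS 32 stood apart in the balance of short against long transcripts (the median log2 deviation of 1968 genes with transcripts of 500 to 1500 bases from their mean over the table, minus that of 2244 genes with 4000 to 6000 bases, was 0.77, against -0.20 to -0.10 in the other DS libraries), followed by FXS 31 at 0.47, WT 30 at 0.30 and WT 33 at 0.24. The DS differences of the members are therefore given with and without it.

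In wild-type astrocytes of the disorder table, expression per transcript length (FPKM, fragments per kilobase of transcript, scaled to library size) was highest for Jak1 (36.7 ± 3.14) and Ifngr1 (33.4 ± 2.46), followed by Ifngr2 (22.8 ± 3.96), Ifnar2 (20.3 ± 2.12), Ifnar1 (13.7 ± 1.60) and Il10rb (11.1 ± 1.41), and lowest for Stat2 (4.20 ± 0.54) and Tyk2 (2.36 ± 0.06; all SD, n = 6). The ranges of neighbours in this order overlapped between Jak1 and Ifngr1, Ifngr1 and Ifngr2, Ifngr2 and Ifnar2, and Ifnar1 and Il10rb, and did not between Ifnar2 and Ifnar1, Il10rb and Stat2, or Stat2 and Tyk2. The row of Ifnar2 carries a transcript of 1099 bases whose coding part is 744 bases, while the longest annotated Ifnar2 coding part is 1539 bases. Its level relative to the other genes therefore depends on that length. The length is the same for every library, but whether the Ifnar2 transcripts in use differ between groups was not tested. No ligand passed the filter. All 16 listed interferon and interleukin-10 family ligands stayed under the filter in the 3 tables, and Ifnb1, the gene of interferon beta, was listed at 0 in all 22 libraries of the disorder table and at up to 0.618 FPKM in the preparation table. Ifng, the gene of interferon gamma, was listed at 0 in 12 of the 22 disorder libraries and reached 0.142 FPKM.

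In DS astrocytes the 4 chromosome 16 receptor genes and Stat2 were higher than in WT, and Ifngr1, Jak1 and Tyk2 did not pass the test. Thus 5 of the 8 genes were called higher and 0 lower (limma on log2(FPKM + 0.5), Benjamini-Hochberg adjusted p under 0.05), where 2.10% of the 12780 genes tested were called higher and 2.25% lower. The count was 2 (Ifnar2 and Il10rb) when only DS and WT were fitted, 3 with the level of the Y-linked gene Ddx3y as a covariate, and 3 without DS 19, DS 21, DS 39, WT 30, WT 34 or WT 35. The chromosome 16 receptors were 1.39 to 1.55 times as high in DS as in WT. The disorder table has 1 batch label for its libraries. In bulk RNA, fewer cells of a type and less RNA per cell cannot be told apart.

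Ifnar1, the subunit that carries TYK2, was at 19.9, 21.5, 14.1 and 22.2 FPKM in DS libraries 19, 21, 32 and 39, against 11.4 to 15.9 FPKM (median 13.9) in WT. DS 32 lay inside the WT range and the other 3 DS libraries lay above all WT libraries. The log2 difference was 0.47 (SE 0.13, adjusted p = 0.0333), a ratio of 1.39 with a 95% confidence interval of 1.16 to 1.67. Without DS 32 it was 0.62 (adjusted p = 0.00325). The call was lost without DS 19, DS 21 or DS 39 (adjusted p = 0.0917 to 0.122) and without WT 30, WT 34 or WT 35 (adjusted p = 0.0561 to 0.068).

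Ifnar2, the subunit that carries JAK1, was at 34.6, 29.9, 39.8 and 23.9 FPKM in the same DS libraries, against 17.2 to 23.1 FPKM (median 20.6) in WT. Every DS library was above every WT library, and DS 32, the lowest for Ifnar1, was the highest here. The log2 difference was 0.63 (SE 0.13, adjusted p = 0.00459), a ratio of 1.55 with an interval of 1.29 to 1.85, and without DS 32 it was 0.52 (adjusted p = 0.0188). The ratio of Ifnar2 to Ifnar1 within a library was 1.079 to 2.82 in DS (median 1.57), with DS 32 the highest, and 1.18 to 1.91 in WT (median 1.49). The highest ratio of FXS, 2.05, was that of FXS 31 and the highest of WT that of WT 30, which are the libraries of their groups with the highest balance of short against long transcripts. In RTT, the highest ratio (1.515) was that of RTT 20, with a balance of -0.175, and the highest balance, -0.041, was that of RTT 40. The Ifnar2 row has a short transcript and the Ifnar1 row one of 3909 bases. With that balance as a covariate, the DS against WT differences were 0.49 for Ifnar1 and 0.62 for Ifnar2. The part of the balance in the ratio of Ifnar2 to Ifnar1 was not tested.

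Ifngr2, the subunit of the interferon gamma receptor that carries JAK2, was at 33.7, 31.6, 34.5 and 29.6 FPKM in DS libraries 19, 21, 32 and 39, against 18.5 to 30.2 FPKM (median 22.03) in WT. Only WT 33, the shallowest library of the disorder table, reached the DS range. The log2 difference was 0.51 (SE 0.10, adjusted p = 0.00395), a ratio of 1.42 with an interval of 1.23 to 1.64. It was 0.48 without DS 32 (adjusted p = 0.0125), and the call was lost when only DS and WT were fitted (adjusted p = 0.058). Il10rb, the shared subunit, was at 17.7, 16.8, 18.96 and 15.7 FPKM in DS, against 8.78 to 12.6 FPKM (median 11.1) in WT, with no overlap. Its log2 difference was 0.63 (SE 0.10, adjusted p = 0.000615), a ratio of 1.54 with an interval of 1.33 to 1.78, and was 0.58 without DS 32 (adjusted p = 0.00311).

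The 4 ratios scattered around that of 3 gene copies, and the confidence interval of each held 1.5. The median log2 difference of the 4 receptors was 0.57, a ratio of 1.48, against a median of -0.07 over all genes tested. An exact permutation test of DS against WT (two-sided, 210 splits, smallest possible p 0.00476) gave p = 0.00476 for Ifnar2 and Il10rb, p = 0.0143 for Ifngr2 and p = 0.019 for Ifnar1. Of the 8 genes, Ifnar2, Il10rb and Ifngr1 had every DS library above every WT library, which 2.46% of all genes tested did.

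**Figure D1:**
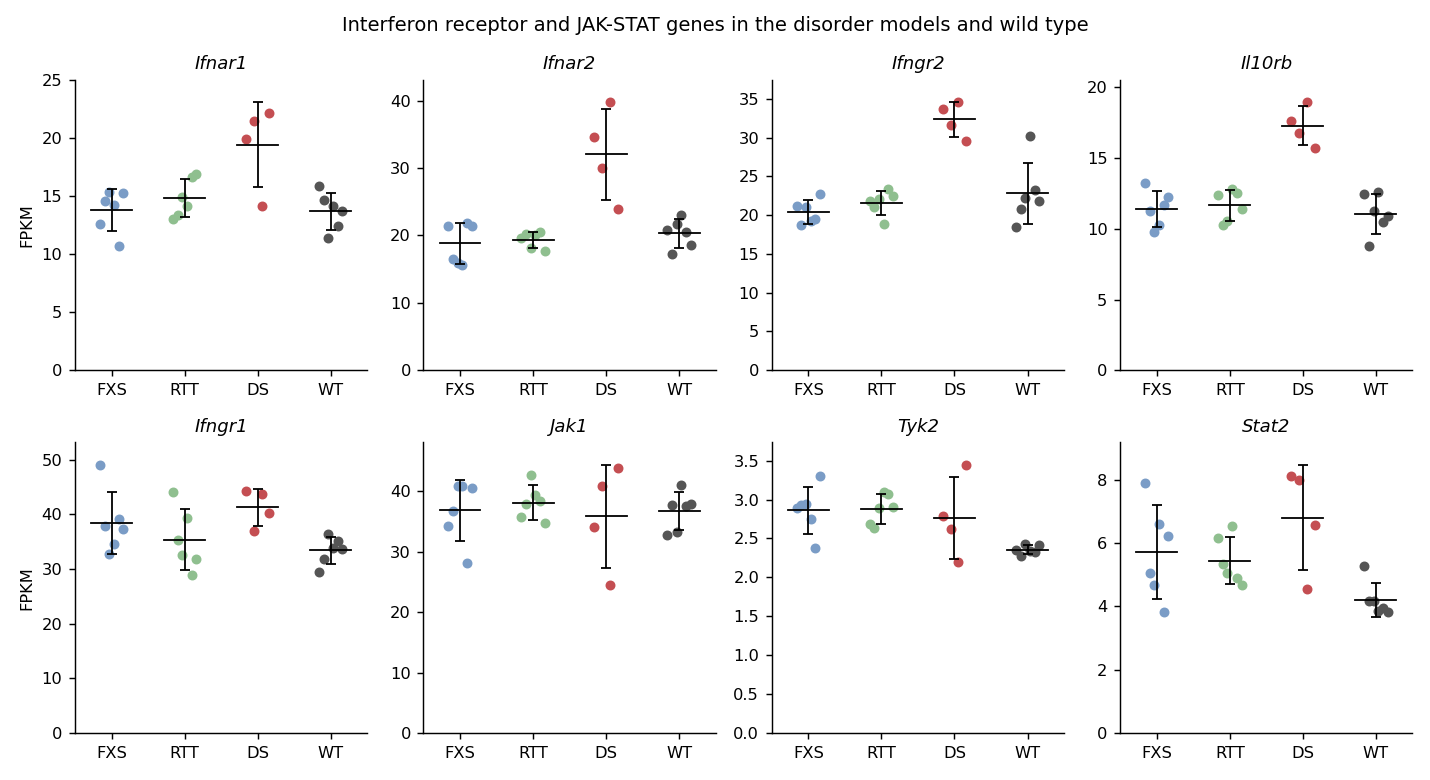
FPKM of the 8 genes in each library of FXS, RTT, DS and WT astrocytes (points), with the group mean (line) and SD (bars) on linear axes from 0. The DS libraries of Ifnar2 and Il10rb lie above all WT libraries, Ifnar1 has DS 32 inside the WT range at 14.1 FPKM, and Jak1 and Tyk2 overlap between DS and WT.

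Ifngr1, the ligand-binding subunit of the interferon gamma receptor, lies on chromosome 10. It was at 44.2, 36.9, 43.7 and 40.2 FPKM in DS, against 29.5 to 36.5 FPKM (median 33.8) in WT. The groups did not overlap, but the log2 difference of 0.30 (SE 0.11) did not pass the test over all genes (adjusted p = 0.137; exact permutation p = 0.00476, unadjusted). Its interval, ratios of 1.05 to 1.45, did not reach 1.5. Without DS 32 the difference was 0.27 (adjusted p = 0.172). The ratio of Ifngr1 to Ifngr2 within a library was 1.17 to 1.36 in DS (median 1.29), against 1.12 to 1.64 in WT (median 1.54).

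Jak1, the kinase shared by the receptors of type I interferons, interferon gamma and the interleukin-6 family, was at 34.2, 40.9, 24.5 and 43.8 FPKM in DS, against 32.7 to 41.0 FPKM (median 37.7) in WT. DS 32 was below all WT libraries and DS 39 above all. The log2 difference was -0.06 (adjusted p = 0.815), with ratios of 0.794 to 1.15 inside the interval, and without DS 32 it turned to 0.10 (adjusted p = 0.587). Tyk2, the kinase of IFNAR1 and IL10RB, was at 2.79, 2.63, 2.19 and 3.45 FPKM in DS and 2.27 to 2.43 FPKM (median 2.34) in WT. Of the 8 genes in WT, Tyk2 varied least, and 3 of the 4 DS libraries lay above all of them. Its log2 difference of 0.18 did not pass the test (adjusted p = 0.316, interval of the ratio 0.984 to 1.30), nor did the 0.27 without DS 32 (adjusted p = 0.0907).

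Stat2, the transcription factor downstream of the type I receptor, was at 8.11, 7.99, 4.53 and 6.56 FPKM in DS, against 3.82 to 5.27 FPKM (median 4.05) in WT. As with Ifnar1, DS 32 lay inside the WT range and the other 3 above it. The log2 difference was 0.61 (SE 0.17, adjusted p = 0.0382), a ratio of 1.53 with an interval of 1.20 to 1.94, although Stat2 is on chromosome 10. It was 0.78 without DS 32 (adjusted p = 0.00647), and the call was lost without DS 19, DS 21 or DS 39 (adjusted p = 0.0713 to 0.185) and without any WT library but WT 22 (adjusted p = 0.057 to 0.0727).

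Microglia also express these receptors, and the summed FPKM of 13 microglial markers was 1.24 to 11.3 in DS (median 2.84; 0 of the 13 averaged 1 FPKM or more), against 3.02 to 40.6 in WT (median 11.9; 7 of the 13 did). With the mean log2 level of these markers as a covariate, Ifnar2, Ifngr2 and Il10rb stayed called with differences of 0.73, 0.64 and 0.65, while Ifnar1 (0.36, adjusted p = 0.11) and Stat2 (0.56, adjusted p = 0.0844) were no longer called. The 7 oligodendrocyte markers summed to 6.06 to 166 FPKM in DS and 8.66 to 130 FPKM in WT. The 8 mural and fibroblast markers summed to 89.3 to 162 FPKM in DS (median 106) and 70.2 to 515 FPKM in WT (median 231). Their medians were 96.5 FPKM in FXS and 110 FPKM in RTT. The part of the oligodendrocyte, mural and fibroblast markers in the results was not tested.

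The chromosome 16 receptors were set beside their neighbours. In the interval from Mrpl39 to the end of the chromosome (chr16:84718281-98082439), 75 genes were tested, of which 28 were called higher in DS and 0 lower, and 70 had a positive difference, with a median log2 difference of 0.45. Without the 4 receptors, 24 of 71 genes were called higher and the median was 0.44. Outside the interval, 1.9% of 12705 genes were called higher and the median was -0.07. The labels do not say whether any genes outside the interval are triplicated too. A gene could pass the filter through the 4 DS libraries alone, inside or outside the interval, and how many did was not tested. Among the genes called in the interval, Pcp4 averaged 4.19 FPKM in DS and 0.4 FPKM in WT, and Setd4 1.21 and 0.738 FPKM. Ranked by their difference, from the highest down, Ifnar2 had rank 16, Il10rb rank 17, Ifngr2 rank 31 and Ifnar1 rank 34 among the 75 genes.

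Within 500 kb of the cluster, 18 other genes were tested, and their median log2 difference was 0.49. The 5 called were Tmem50b (0.89), 4932438H23Rik (0.88), Dnajc28 (0.65), Mrps6 of the mitochondrial ribosome (0.63) and the endocytic scaffold Itsn1 (0.60). Not called, and nearer to 0, were the purine synthesis enzyme Gart (0.18), the splicing cofactor Son (0.14), the replication gene Donson (0.04) and the inositol transporter Slc5a3 (0.01). The oligodendrocyte lineage factors Olig1 and Olig2 had negative differences of -0.37 and -0.49 that did not pass the test. The 18 neighbours thus ranged from -0.49 to 0.89.

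**Figure D2:**
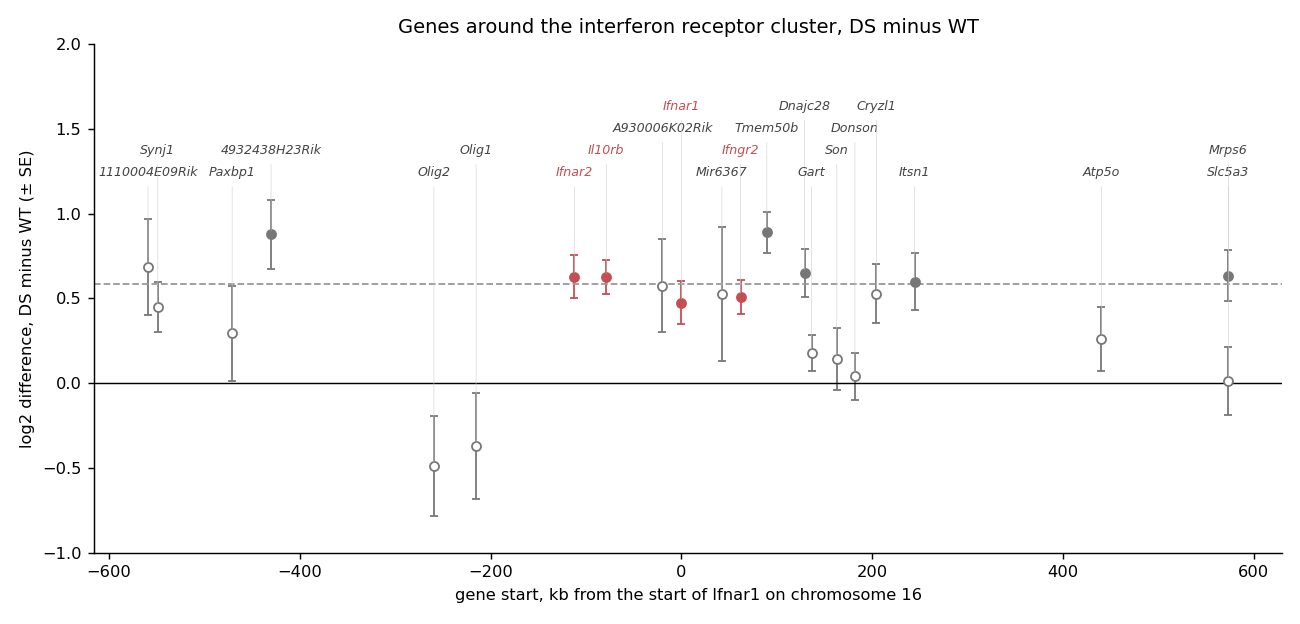
Log2 difference of DS minus WT (± SE) for the 22 tested genes around the receptor cluster, placed by the distance of their start from that of Ifnar1 in kb. Filled points passed the test, the 4 receptors are red, and the dashed line marks a ratio of 1.5; the receptors lie between 0.47 and 0.63, between Tmem50b at 0.89 and Olig2 at -0.49.

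The other genes of the pathway were described from lists. None of the 7 tested genes among 9 other JAKs, STATs and Irf9 was called in DS against WT (1 had an unadjusted p under 0.05). None of 14 tested negative regulators of 17 was called (4 had an unadjusted p under 0.05), although Usp18, an interferon-induced brake on IFNAR2, had a difference of 0.91 (adjusted p = 0.14). None of 5 tested receptors of the interleukin-6 family of 7 was called (0 at an unadjusted p under 0.05). Of the 7 other receptors of the IFNAR and IL10RB family, F3 alone passed the filter (0.05, adjusted p = 0.862; 0 of 1 at an unadjusted p under 0.05). Ifnlr1 and Il10ra, which pair with IL10RB, were at most at 0.171 and 0.056 FPKM in any library of the disorder table.

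Of 38 interferon-stimulated genes, 33 passed the filter, 4 were called higher in DS (12.1%, against 2.10% of all genes) and 0 lower, and 29 had a positive difference, with a median of 0.35. Bst2 (tetherin, which holds back budding viruses) was at 55.9, 36.9, 50.8 and 25.5 FPKM in DS libraries 19, 21, 32 and 39, against 13.2 to 24.7 FPKM in WT. Ifi44 was at 1.23, 1.19, 1.42 and 0.825 FPKM in DS and 0.131 to 0.559 FPKM in WT. The groups did not overlap for either gene. Ifi44 passed the filter through DS 19, DS 21, DS 32 and FXS 17 alone, so it entered the test through the group in which it was high. Ifit3, an antiviral gene induced by type I interferon, was at 30.2, 18.8, 16.1 and 13.5 FPKM in DS, against 5.37 to 15.1 FPKM in WT. Psmb9, a subunit of the immunoproteasome, was at 10.1, 6.56, 9.27 and 4.98 FPKM in DS, against 3.36 to 5.10 FPKM in WT. For both, DS 39 lay inside the WT range. The log2 differences were 1.15 for Bst2 (adjusted p = 0.0297), 1.03 for Ifi44 (adjusted p = 0.012), 1.136 for Ifit3 (adjusted p = 0.048) and 0.80 for Psmb9 (adjusted p = 0.034). The count of 4 was 0 without DS 19, 2 without DS 21, 1 without DS 32 and 1 without WT 26, WT 34 or WT 35. It was 7 with the microglial covariate and 7 when DS 32, FXS 31 and WT 33 were left out together. The count also changed with a filter at an FPKM of 5, with only DS and WT fitted, and with the Ddx3y covariate. Over all 22 alternatives it ran from 0 to 7.

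In FXS against WT and in RTT against WT, 0 of the 8 genes were called by limma (2 in each had an unadjusted p under 0.05), where 1 of 12780 genes was called in each comparison (0.00782%). The 4 chromosome 16 genes stayed close to WT. Ifnar1 averaged 13.8 ± 1.82 FPKM in FXS, 14.8 ± 1.65 FPKM in RTT and 13.7 ± 1.60 FPKM in WT (SD, n = 6 each), and Ifnar2 averaged 18.8 ± 3.06 FPKM in FXS, 19.4 ± 1.20 FPKM in RTT and 20.3 ± 2.12 FPKM in WT (SD, n = 6 each). Ifngr2 differed by -0.15 in FXS and -0.06 in RTT, and Il10rb by 0.04 in FXS and 0.08 in RTT. Jak1 differed by -0.002 in FXS (adjusted p = 0.996) and 0.06 in RTT (adjusted p = 0.841). The upper confidence bounds of the ratio for the 4 receptors were 1.03 to 1.18 in FXS and 1.09 to 1.27 in RTT, below 1.5.

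The genes with an unadjusted p under 0.05 were Tyk2 and Stat2. Tyk2 was at 2.37 to 3.30 FPKM (median 2.91) in FXS and 2.64 to 3.10 FPKM (median 2.89) in RTT, against 2.27 to 2.43 FPKM in WT. Every RTT library was above every WT library, as in 0.532% of all genes tested, and 1 FXS library reached the WT range. The log2 differences were 0.23 in FXS (adjusted p = 0.155) and 0.24 in RTT (adjusted p = 0.47).

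Stat2 was at 3.82 to 7.89 FPKM (median 5.64) in FXS and 4.68 to 6.52 FPKM (median 5.19) in RTT, against 3.82 to 5.27 FPKM (median 4.05) in WT. The log2 differences were 0.37 in FXS (adjusted p = 0.17) and 0.34 in RTT (adjusted p = 0.471). The 3 disorder groups share the 6 WT libraries, so a low WT value enters each of these differences. Ifngr1 ran from 32.8 to 49.1 FPKM (median 37.6) in FXS, with FXS 17 the highest, and from 28.9 to 44.1 FPKM (median 33.98) in RTT, each a wider range than in DS or WT. Its log2 differences from WT were 0.19 in FXS (adjusted p = 0.296) and 0.07 in RTT (adjusted p = 0.768).

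**Figure D3:**
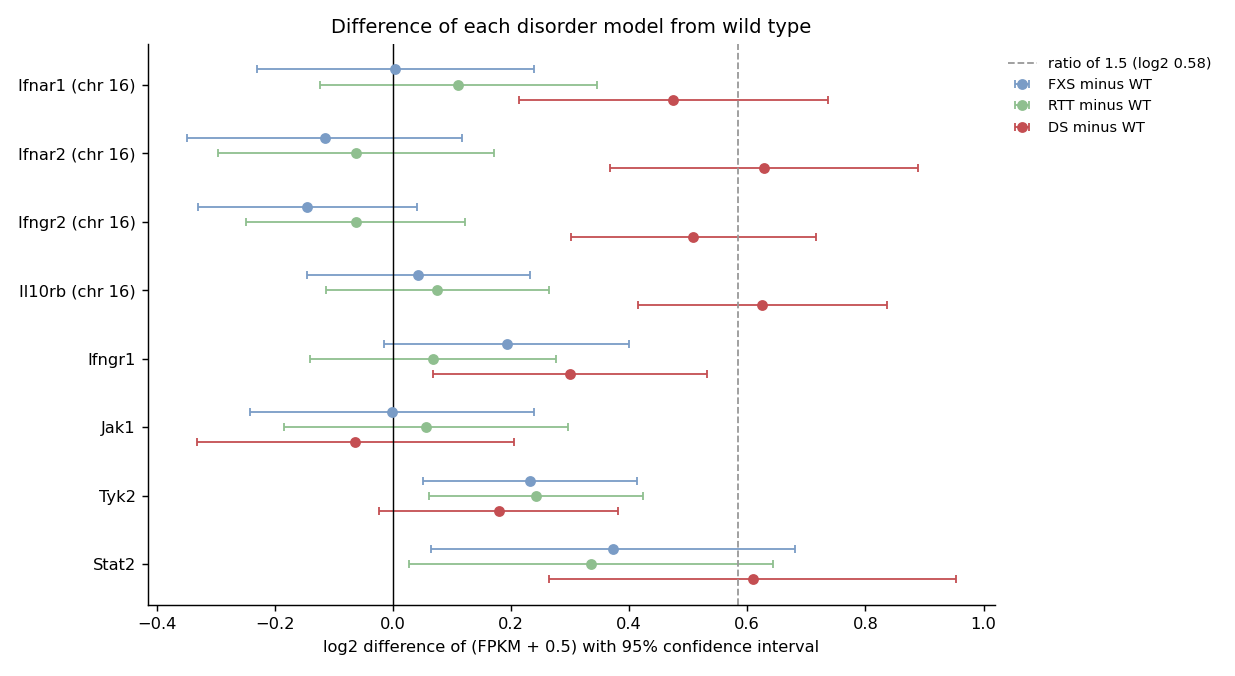
Log2 difference of each disorder group from WT for the 8 genes, with 95% confidence intervals; the dashed line marks a ratio of 1.5. The DS intervals of the 4 chromosome 16 genes lie above 0 and hold 1.5, while the FXS and RTT intervals of these genes hold 0 and stay below 1.5.

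DS was also compared directly with the other disorders. Against FXS, the 4 chromosome 16 genes were called higher in DS and no other member was (1.53% of all genes were called higher). The log2 differences were 0.74 for Ifnar2 (adjusted p = 0.00106), 0.65 for Ifngr2 (adjusted p = 0.000334), 0.58 for Il10rb (adjusted p = 0.00145) and 0.47 for Ifnar1 (adjusted p = 0.0458). The call of Ifnar1 was lost without DS 19, DS 21 or DS 39 (adjusted p = 0.0947 to 0.174) and without any FXS library but FXS 28 (adjusted p = 0.0522 to 0.0899). Against RTT, 3 were called higher in DS (1.53% of all genes): Ifnar2 (0.69, adjusted p = 0.00228), Ifngr2 (0.57, adjusted p = 0.00145) and Il10rb (0.55, adjusted p = 0.00266). Ifnar1 (0.36, adjusted p = 0.129) was called only when DS 32 was left out (0.51, adjusted p = 0.0244), or DS 32, FXS 31 and WT 33 together, or with the transcript balance as a covariate. Without DS 32, the differences from FXS were 0.63 for Ifnar2, 0.62 for Ifngr2, 0.54 for Il10rb and 0.61 for Ifnar1 (adjusted p = 0.00212 to 0.0078), and those from RTT were 0.58 for Ifnar2, 0.54 for Ifngr2 and 0.51 for Il10rb (adjusted p = 0.00838 to 0.0156). These comparisons share the 4 DS libraries with each other and with the comparison against WT.

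Stat2 did not pass in DS against FXS (0.24, adjusted p = 0.521; interval of the ratio 0.928 to 1.496) or against RTT (0.27, adjusted p = 0.357; interval 0.952 to 1.54), and without DS 32 it was 0.40 (adjusted p = 0.218) and 0.44 (adjusted p = 0.238). Ifngr1 differed by 0.11 from FXS (adjusted p = 0.682) and 0.23 from RTT (adjusted p = 0.261), and without DS 32 by 0.08 and 0.20. Jak1 differed by -0.06 from FXS (adjusted p = 0.851) and -0.12 from RTT (adjusted p = 0.62), and Tyk2 by -0.05 from FXS (adjusted p = 0.831) and -0.06 from RTT (adjusted p = 0.74). Without DS 32 these turned to 0.11 and 0.05 for Jak1 and to 0.04 and 0.03 for Tyk2, none of which passed. Jak3, a Janus kinase best known from lymphocytes, was the other gene of the JAK and STAT list that was called. It was at 4.37, 4.496, 3.81 and 3.36 FPKM in DS libraries 19, 21, 32 and 39, against 1.80 to 3.16 FPKM in FXS (log2 difference 0.64, adjusted p = 0.0154) and 1.78 to 3.29 FPKM in RTT (0.55, adjusted p = 0.0455). In WT it was at 2.72 to 3.95 FPKM, which overlapped DS. Of the 33 tested interferon-stimulated genes, 2 were called higher in DS against FXS, Psmb9 (0.99, adjusted p = 0.0108) and Psmb8 (0.88, adjusted p = 0.0283), and 2 against RTT, Psmb9 (1.11, adjusted p = 0.00381) and Ifi44 (0.96, adjusted p = 0.024), which entered the test as described above.

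The comparison of BMP6-treated with untreated sister cultures asked how the same genes behave in wild-type astrocytes under a growth factor. Ifngr1 was higher with BMP6, at 34.2 to 42.8 FPKM (median 39.96), against 23.4 to 30.5 FPKM (median 26.2) in Alone. The groups did not overlap, as in 2.99% of all genes tested in this direction, and BMP6 was higher in each of the 6 cultures, by 0.38 to 0.83 on the log2 scale. The mean difference was 0.58 (SE 0.08, adjusted p = 0.00125), a ratio of 1.49 with an interval of 1.33 to 1.68. It was the 1 member called of 8, where 15.1% of the 12185 genes tested were called, 5.38% of them higher and 9.72% lower.

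Each culture gave a BMP6 and an Alone library with the same number and batch label, so the fit was repeated with the culture as a replicate block. The block raised the share of all genes called to 35.5% (11.4% higher, 24.1% lower) and the members called to 4. Ifngr1 stayed called (adjusted p = 0.00231). Stat2 was higher with BMP6 in 6 of 6 cultures, with a mean difference of 0.37 (adjusted p = 0.0262 with the block, 0.218 without).

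Tyk2 and Ifnar1 were lower with BMP6 in 6 of 6 cultures. Tyk2 was at 2.06 to 3.54 FPKM (median 2.80) with BMP6 and 3.11 to 4.48 FPKM (median 3.47) in Alone, a difference of -0.31 (adjusted p = 0.0256 with the block, 0.142 without). Ifnar1 was at 13.8 to 17.4 FPKM (median 15.9) with BMP6 and 14.6 to 21.5 FPKM (median 18.5) in Alone, a difference of -0.19 (adjusted p = 0.0408 with the block, 0.184 without). The calls of Stat2, Tyk2 and Ifnar1 rest on the paired fit.

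Il10rb was lower with BMP6 in 6 of 6 cultures (10.3 ± 0.91 FPKM with BMP6, 12.3 ± 2.38 FPKM in Alone; SD, n = 6 each), with a difference of -0.24 that missed the threshold with the block (adjusted p = 0.0533). Ifngr2 differed by -0.16 (adjusted p = 0.0853 with the block), Ifnar2 by 0.02 and Jak1 by 0.10. The subunits of the interferon gamma receptor thus stood in another proportion in the treated cultures: the ratio of Ifngr1 to Ifngr2 was 1.87 to 2.59 with BMP6 (median 2.20), against 1.076 to 1.68 in Alone (median 1.32), with no overlap.

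**Figure D4:**
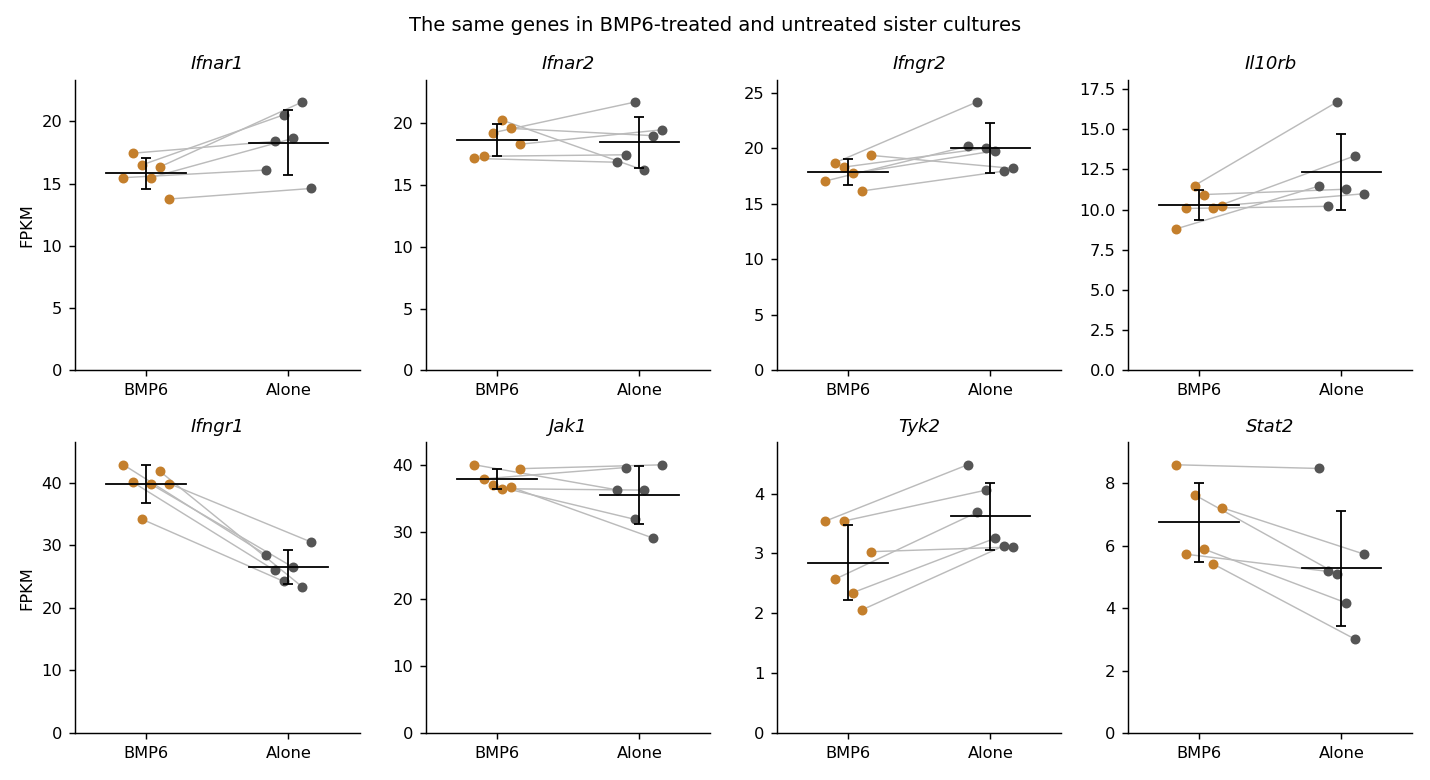
FPKM of the 8 genes in BMP6-treated and untreated (Alone) wild-type cultures (points), with the mean (line) and SD (bars), on linear axes from 0. Grey lines join libraries of the same culture: Ifngr1 is higher with BMP6 in all 6, Stat2 too, and Tyk2, Ifnar1 and Il10rb are lower in all 6.

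Among the listed pathway genes, 8 were called with BMP6 without the block, and all 8 were higher. The receptor Il11ra1 was at 21.4 to 30.1 FPKM with BMP6 and 14.8 to 26.2 FPKM in Alone (0.50, adjusted p = 0.0368), and was the 1 called of 5 tested interleukin-6 family receptors. Of 8 tested genes in the JAK and STAT list, Stat5b (11.2 ± 0.44 FPKM with BMP6, 9.02 ± 1.02 FPKM in Alone; difference 0.31, adjusted p = 0.0192) and Stat5a (0.61, adjusted p = 0.0279) were called. Stat5a passed the filter through 5 BMP6 libraries and Alone 76 at 1.002 FPKM, so it entered the test mainly through the group in which it was high. Of 31 tested interferon-stimulated genes, 5 were called (16.1%, against 5.38% of all genes called higher) and 26 had a positive difference, with a median of 0.20 against -0.08 over all genes. Bst2 (0.55, adjusted p = 0.0129), Psmb8 (0.37, adjusted p = 0.0136) and the ubiquitin ligase Trim25 (0.26, adjusted p = 0.027) had the smallest p-values. None of 15 tested negative regulators was called by limma (1 had an unadjusted p under 0.05). All these list counts come from the fit without the block, and none were made with it.

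The summed astrocyte markers were 2123 to 4005 FPKM with BMP6 (median 3151) and 1151 to 2955 FPKM in Alone (median 2168). The microglial markers summed to 0.58 to 5.90 FPKM with BMP6 and 1.49 to 12.3 FPKM in Alone, with Aif1 listed at 0 in every Alone library. Their part in the differences was not tested.

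The preparation table compared astrocytes taken directly with astrocytes in culture. Its libraries share a batch label and nothing says that they came from separate cultures, so the p-values measure the spread between these samples. The share of all genes whose groups did not overlap is not given for these preparations. A lack of overlap between groups this small is therefore a description only. In MD cultured against IP cultured astrocytes, 4 members were called, Ifngr1 and Stat2 higher and Ifnar1 and Ifngr2 lower, where 45.8% of the 14101 genes tested were called (16.4% higher, 29.3% lower). The median of all genes was itself shifted by -0.16 in this comparison and by -0.24 in MD cultured against IP acute. It was at 0.02 and -0.02 after scaling by the median of ratios.

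Ifnar1 was at 13.2, 12.7 and 11.5 FPKM in MD cultured astrocytes, against 36.2, 24.8 and 30.8 FPKM in IP cultured astrocytes and 39.7, 31.4 and 35.6 FPKM in IP acute astrocytes. The MD libraries lay far below all others. The log2 difference of MD cultured was -1.25 from IP cultured (SE 0.15, adjusted p = 0.000517) and -1.47 from IP acute (SE 0.15, adjusted p = 8.9e-05), and the call stood in all 14 alternatives of each. In the authors' deposited table these differences were -1.12 (adjusted p = 1.54e-08) and -1.26 (adjusted p = 1.17e-16). Ifnar2, the other type I subunit, was at 28.8, 33.9 and 36.3 FPKM in MD cultured and 36.9, 25.1 and 36.5 FPKM in IP cultured astrocytes, a difference of 0.02 (adjusted p = 0.942; interval of the ratio 0.714 to 1.45). In IP acute astrocytes it was at 59.5, 34.5 and 40.8 FPKM, from which MD cultured differed by -0.41 (adjusted p = 0.147). The ratio of Ifnar2 to Ifnar1 was 2.18 to 3.16 in MD cultured, 1.01 to 1.19 in IP cultured and 1.10 to 1.497 in IP acute libraries.

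Ifngr2 was at 23.0, 26.3 and 24.04 FPKM in MD cultured astrocytes, 34.9, 43.7 and 34.01 FPKM in IP cultured astrocytes and 47.2, 68.8 and 45.7 FPKM in IP acute astrocytes. The 3 groups did not overlap. The difference of MD cultured was -1.10 from IP acute (adjusted p = 0.000718) and -0.60 from IP cultured (adjusted p = 0.0207). The call against IP cultured was lost with median of ratios scaling (-0.41, adjusted p = 0.0843) or quantile normalization (-0.42, adjusted p = 0.0878), and without MD 1 (adjusted p = 0.0662) or MD 3 (adjusted p = 0.0581). The authors' deposited table gives -0.44 (adjusted p = 0.0401) for MD cultured against IP cultured.

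Ifngr1 ran the other way, at 63.4, 67.3 and 80.7 FPKM in MD cultured astrocytes, 39.8, 51.6 and 39.4 FPKM in IP cultured astrocytes and 44.4, 28.8 and 34.8 FPKM in IP acute astrocytes. The MD libraries lay above all others, and those of IP cultured and IP acute overlapped. The difference of MD cultured was 0.69 from IP cultured (adjusted p = 0.0139, lost without MD 3 at 0.59 and adjusted p = 0.0531, and without IP cultured 7 at 0.62 and adjusted p = 0.0522) and 0.97 from IP acute (adjusted p = 0.00172). The ratio of Ifngr1 to Ifngr2 was 2.56 to 3.36 in MD cultured, 1.143 to 1.18 in IP cultured and 0.419 to 0.941 in IP acute libraries, with no overlap between the 3 groups.

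Stat2 was at 15.0, 8.80 and 8.12 FPKM in MD cultured astrocytes, against 5.77, 5.40 and 5.22 FPKM in IP cultured and 5.90, 5.46 and 5.95 FPKM in IP acute astrocytes. All MD libraries were above the rest and MD 1 was well above the other 2. The difference of MD cultured was 0.85 from IP cultured (adjusted p = 0.0123) and 0.78 from IP acute (adjusted p = 0.013). Without MD 1 these were 0.59 (adjusted p = 0.0182) and 0.51 (adjusted p = 0.0198).

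Il10rb and Tyk2 did not pass in any comparison of preparations. Il10rb averaged 13.8 ± 2.36 FPKM in MD cultured, 14.8 ± 5.64 FPKM in IP cultured and 19.7 ± 7.61 FPKM in IP acute astrocytes, and Tyk2 4.46 ± 0.56, 4.73 ± 1.04 and 4.98 ± 0.52 FPKM in the same order (SD, n = 3 each). Jak1 was at 43.01, 41.2 and 43.02 FPKM in MD cultured, 42.7, 61.4 and 44.9 FPKM in IP cultured and 55.7, 52.3 and 58.2 FPKM in IP acute astrocytes. It was called in MD cultured against IP acute (-0.38, adjusted p = 0.0391), which made 5 members called where 60.1% of all genes were (20.4% higher, 39.8% lower), and the call was lost in 8 of 14 alternatives, among them median of ratios scaling (-0.15, adjusted p = 0.425) and leaving out any of the 6 libraries (adjusted p = 0.058 to 0.117). The authors' deposited table gives -0.13 (adjusted p = 0.324) for it. Against IP cultured, Jak1 differed by -0.21 in MD cultured (adjusted p = 0.247).

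In IP cultured against IP acute astrocytes, 1 member was called, where 43.3% of all genes tested were (17.8% higher, 25.5% lower). This was Ifngr2 (-0.50, adjusted p = 0.0439), and the call was lost in 9 of 15 alternatives, including both scalings (adjusted p = 0.0545 and 0.0559) and leaving out IP cultured 2 or 7 or IP acute 2 or 4 (adjusted p = 0.053 to 0.132). Without IP cultured 4, Jak1 was called too (-0.33, adjusted p = 0.0108). In the authors' deposited table Ifngr2 did not pass (-0.43, adjusted p = 0.149). Ifnar1 (-0.22), Ifnar2 (-0.43), Ifngr1 (0.28), Jak1 (-0.17) and Stat2 (-0.07) did not pass (adjusted p = 0.153 to 0.815).

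All 3 preparations held markers of other cells. The 13 microglial markers summed to 33.1 to 101 FPKM in MD cultured, 96.5 to 283 FPKM in IP cultured and 157 to 1655 FPKM in IP acute libraries. The 7 endothelial markers summed to at most 8.87 FPKM in any cultured library and to 754 to 1338 FPKM in IP acute libraries. The 7 neuronal markers summed to 104 to 190 FPKM in MD cultured, 12.4 to 22.8 FPKM in IP cultured and 345 to 1552 FPKM in IP acute libraries. The 7 oligodendrocyte markers summed to 42.3 to 48.3 FPKM in MD cultured, 304 to 1109 FPKM in IP cultured and 30.02 to 225 FPKM in IP acute libraries. The 4 markers of oligodendrocyte precursors summed to 7.61 to 10.6 FPKM in MD cultured, 67.3 to 192 FPKM in IP cultured and 435 to 885 FPKM in IP acute libraries. The 8 mural and fibroblast markers summed to 103 to 267 FPKM in MD cultured, 289 to 615 FPKM in IP cultured and 680 to 2071 FPKM in IP acute libraries. The 12 astrocyte markers summed to 10658 to 13973 FPKM in MD cultured, 4098 to 7724 FPKM in IP cultured and 6657 to 9984 FPKM in IP acute libraries. The part of all these markers in the differences between preparations was not tested.

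**Figure D5:**
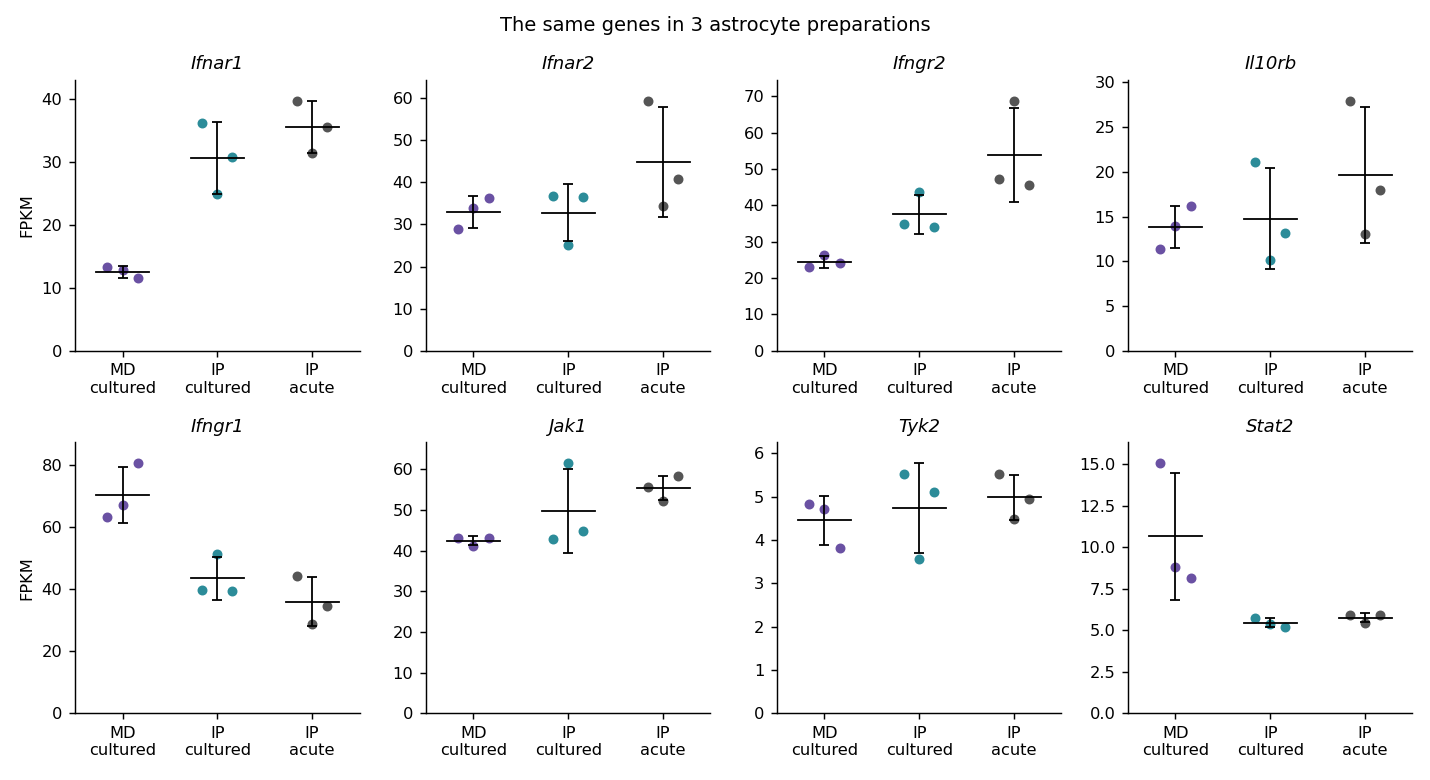
FPKM of the 8 genes in MD cultured, IP cultured and IP acute astrocytes (points, 3 libraries each), with the mean (line) and SD (bars), on linear axes from 0. MD cultured libraries are the lowest for Ifnar1 and Ifngr2 and the highest for Ifngr1 and Stat2.

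Of 35 tested interferon-stimulated genes, 15 were called higher in IP cultured against IP acute astrocytes (42.9%, against 17.8% of all genes) and 1 lower (2.86%, against 25.5%), with a median of 0.93. In MD cultured against IP acute, 23 were called higher (65.7%, against 20.4% of all genes) and 2 lower (5.71%, against 39.8%), with a median of 1.24. Ifit2 averaged 25.8 ± 2.66 FPKM in MD cultured, 31.1 ± 9.41 FPKM in IP cultured and 7.88 ± 0.58 FPKM in IP acute astrocytes (SD, n = 3 each). Irf1, a transcription factor induced by interferon gamma, ran the other way, at 19.2 ± 3.21 FPKM in MD cultured, 13.6 ± 2.32 FPKM in IP cultured and 47.9 ± 6.81 FPKM in IP acute astrocytes (SD, n = 3 each).

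Between MD cultured and IP cultured astrocytes, 3 of the 35 interferon-stimulated genes were called higher (8.57%, against 16.4% of all genes) and 1 lower (2.86%, against 29.3%), with the smallest p for Ifi35 (1.96, adjusted p = 0.00127). Jak2, the kinase of IFNGR2, was lower in MD cultured astrocytes (14.3 ± 1.77 FPKM) than in IP cultured (27.2 ± 1.18 FPKM) and IP acute (29.97 ± 1.37 FPKM) astrocytes (SD, n = 3 each), by -0.91 (adjusted p = 0.000494) and -1.05 (adjusted p = 9.5e-05). Of 17 negative regulators, 3 were called higher (17.6%, against 17.8% of all genes) and 8 lower (47.1%, against 25.5%) in IP cultured against IP acute. Socs3, a feedback inhibitor of JAK signalling, was at 12.3 ± 2.97 FPKM in IP cultured and 165 ± 30.05 FPKM in IP acute astrocytes (-3.70, adjusted p = 0.000126). In MD cultured against IP acute, 0 were called higher (against 20.4% of all genes) and 7 lower (41.2%, against 39.8%). In MD cultured against IP cultured, 3 were called higher (17.6%, against 16.4%) and 5 lower (29.4%, against 29.3%), which is the share of all genes.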

How the data were processed

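RNA from 43 astrocyte libraries was sequenced from stranded poly(A) libraries with single-end reads of 50 bp, per the labels. The submitters' processing notes name HOMER 4.10.4, DESeq2 1.14.1, STAR 2.5.3a and FastQC 0.11.8 and the build mm10, without their roles. The authors deposited 3 tables of 24537 genes, whose values are FPKM per the file headers in the disorder and BMP6 tables; the preparation table names no unit and was read as FPKM from its layout. The authors' log2 fold changes and their deposited adjusted p-values stand in the same table. FPKM sums per library differ between tables (305262 to 637271 in all), so levels were compared within a table only.

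The groups of each table were fitted together with limma 3.58.1 (R 4.3.3; two-sided, moderated variances with a trend) on log2(FPKM + 0.5). A gene was tested where 4 disorder, 6 BMP6 or 3 preparation libraries, the size of the smallest group, reached an FPKM of 1. P-values were adjusted by Benjamini-Hochberg over all genes tested, with a threshold of 0.05. Fold changes understate those of low genes. Alternatives were pseudocounts of 0.1 and 1, no filter, a filter at an FPKM of 5, median of ratios scaling, quantile normalization, robust empirical Bayes, only the groups compared, Ddx3y and microglial covariates, a replicate block and leaving out each library. Leaving out DS 32, FXS 31 and WT 33 together and the transcript balance covariate were added after seeing the data.

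Depth was estimated from low values as whole multiples of what 1 read is worth at the annotated transcript length (GENCODE, GRCm38.p6; 97.0% of transcripts matched). Whole reads, to a tolerance of 0.08, made up 73.2% to 77.9% of these values at the depth chosen. The median share over the depths tried was 5.9% to 11.2%, depending on the library. No count test was run, because the values were read as FPKM. Genes were placed by their RefSeq transcript, or by symbol where that was not found (99.6%). The transcript balance is defined where it is first used. BMP6 and Alone libraries of a culture share a number and a batch label, and their deviations correlated at r = 0.41 to 0.777, so the numbers pair the samples.

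All 8 members are named in each comparison; from each pathway list the text names up to 6 called genes in DS against WT and up to 3 in the others, and neighbours by distance. Members, lists and this rule were chosen with earlier results of these data known. The fits were tested on simulated data. Some items are not reported here.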

Additional observations from a re-analysis of the deposited data

Results flagged for a closer look

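In 48 combinations of a member and a group of 4 or more libraries, 3 had a library far from the rest of its group, and chance flags about 1 in 20. Ifngr1 in BMP6 91 was at 34.167 FPKM, below the 39.8 to 42.8 FPKM of the other BMP6 libraries, and still above every Alone library. Ifngr2 in Alone 81 was at 24.14 FPKM, above the 17.9 to 20.2 FPKM of the other Alone libraries. Stat2 in WT 22 was at 5.273 FPKM, above the 3.82 to 4.17 FPKM of the other WT libraries, which places it above 1 of the 4 DS libraries.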

How the results depend on the processing

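Of the members called in DS against WT, Ifnar2 and Il10rb were called in all 22 alternatives, Ifngr2 in 21, Ifnar1 in 13 and Stat2 in 11, and no called difference changed sign in any comparison. The 5 members called became 2 when only the groups compared were fitted (Ifngr2 at adjusted p = 0.058), 3 with the Ddx3y covariate and 3 with the microglial covariate. Leaving out a library gave 3 to 5, with 3 without DS 19, DS 21, DS 39, WT 30, WT 34 or WT 35. The median difference of the 4 chromosome 16 receptors (0.57) was 0.64 with the microglial covariate and 0.53 to 0.63 with a library left out. In DS against FXS the count was 3 to 4, in DS against RTT 3 to 4, and in FXS or RTT against WT 0 under every alternative run. The replicate block raised BMP6 against Alone to 4 members called from 1, and leaving out a library gave 1 to 1. In IP cultured against IP acute, the count of 1 was 0 without a filter, with median of ratios scaling, with quantile normalization, with only the groups compared and with the replicate block in that fit, and 0 to 2 with a library left out; its shared numbers do not pair the samples (r = -0.056 to 0.091). In MD cultured against IP cultured the count of 4 was 2 without MD 3, and 2 to 4 over libraries; against IP acute it was 4 to 4. No paired analysis was possible because MD cultured shares fewer than 2 numbers with the other preparations, and the disorder groups share none. The interferon-stimulated genes called in DS numbered 0 to 7. At an FPKM filter of 5, Tyk2 could not be fitted in the disorder and BMP6 tables. Where not stated, the cause was not tested. Depth limits Tyk2 most, at 118 estimated reads in WT 33.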

Other observations

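For 7 members, the gene whose level followed it most closely over the 22 libraries of the disorder table was found by Pearson correlation of log2(FPKM + 0.5) after each group's mean was subtracted. These values are descriptions, and the libraries share their transcript balance and depth. Ifnar1 was closest to Washc5 (r = 0.965) and Ercc5 (0.965), Jak1 to Daam1 (0.953), Tyk2 to Mprip (0.913), Ifnar2 to Trpt1 (0.887), Stat2 to Arrdc2 (0.881), Ifngr2 to Fstl3 (0.864) and Il10rb to Gss (0.815). None of these was another member. Ifnar1 and Ifnar2, the subunits of the same receptor, had an r of -0.60 over the 22 libraries after the same subtraction. Pairs of members ran from -0.642 (Ifnar1 and Ifngr1) to 0.726 (Ifnar2 and Il10rb), and Ifnar2 and Jak1 were at -0.635. A negative r was therefore not particular to the 2 subunits. Whether it holds inside each single group was not tested. The listed transcripts are 3909 bases for Ifnar1 and 1099 bases for Ifnar2, and the part of the transcript balance in this r was not tested.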
